A study of Homo sapiens with 4 samples.

Results

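AP-1 is a family of dimeric transcription factors built from JUN, FOS and ATF proteins, which pair through leucine zippers. EGR1, a zinc-finger transcription factor, and IER2, a nuclear protein, belong with several AP-1 genes to the immediate-early genes, which cells transcribe within minutes of a growth or stress signal without first making new protein. The members described here are the 10 genes JUN, JUNB, JUND, FOS, FOSB, FOSL1, FOSL2, ATF3, EGR1 and IER2. They were chosen by gene symbol, and 12 of the 47323 probes on the array table carry one of these symbols: 3 for ATF3 and 1 for each other gene. Of these, 8 probes, 1 each for 8 genes, were above the background limit of 28.1 intensity units on at least 2 of the 4 arrays and were tested with 17689 probes in all.

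HCT116, an established line of human colorectal carcinoma cells, was given Las1L siRNA #1 (1 array), Las1L siRNA #2 (1 array) or a control siRNA (2 arrays). Each siRNA was used at 40 nM, and RNA was taken 72 h later for Illumina HumanHT-12 v4 bead arrays. LAS1L is a nucleolar protein needed to process ribosomal RNA precursors of the large subunit, and the series concerns the response of cancer cells to nucleolar stress. The Las1L arrays differ in their siRNA and nothing in the labels ties the control arrays to separate cultures. The p-values therefore reflect only the spread between these arrays, which may in part be technical. The tests also borrow variance from other probes on the same arrays, so a p-value does not rest on a gene's own spread alone. The strands given in the labels, without their 3′ overhangs, are shown because the Las1L group rests on 1 array of each of 2 sequences.
Las1L siRNA #1: cugauacgcuguaagcucu
Las1L siRNA #2: cauuuauacccagagugga
control siRNA: gaucauacgugcgaucaga

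Many immediate-early genes have response elements in the DNA just before the start site. A CArG box binds the serum response factor SRF, and a CRE binds ATF and CREB dimers. The 250 bases before the start site in RefSeq (GRCh38.p14) were found for 9 of the 10 members, all but FOSL1. ATF3 has a pair of start sites in that source, so there were 10 windows. Which start site these cells use was not tested, and a start site missing from the source was not searched. They were searched on both strands for TGACTCA or TGAGTCA (the AP-1 site), TGACGTCA (the CRE), GCGTGGGCG (the EGR1 site), the CArG box and the p53 half-site. TGACATCA, a variant of the CRE known from the JUN promoter, was added after the sequences were seen. The 3 windows that follow belong to EGR1, ATF3 and JUN. EGR1 had the log2 fold change of largest size among the tested members. ATF3 was the member that moved the other way, and JUN shares a motif with ATF3. Capitals mark the CArG boxes in EGR1 and TGACATCA in the other two.
EGR1, chr5:138465229-138465478, plus strand: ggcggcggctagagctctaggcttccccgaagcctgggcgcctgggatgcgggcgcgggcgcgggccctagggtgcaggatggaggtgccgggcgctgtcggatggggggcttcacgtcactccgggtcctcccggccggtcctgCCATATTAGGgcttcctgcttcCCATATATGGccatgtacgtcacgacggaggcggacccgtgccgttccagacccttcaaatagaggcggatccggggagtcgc
ATF3, chr1:212565157-212565406, plus strand: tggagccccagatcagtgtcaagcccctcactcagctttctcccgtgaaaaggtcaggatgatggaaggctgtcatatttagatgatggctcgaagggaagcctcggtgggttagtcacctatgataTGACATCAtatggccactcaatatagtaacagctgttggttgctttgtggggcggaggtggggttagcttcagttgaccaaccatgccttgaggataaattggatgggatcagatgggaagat
JUN, chr1:58784048-58784297, minus strand: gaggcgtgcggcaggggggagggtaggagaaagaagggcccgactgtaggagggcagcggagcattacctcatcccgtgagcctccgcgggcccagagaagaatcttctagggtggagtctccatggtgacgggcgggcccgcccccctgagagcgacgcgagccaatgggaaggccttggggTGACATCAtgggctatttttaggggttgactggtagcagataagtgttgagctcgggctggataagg

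EGR1 had a pair of CArG boxes that do not overlap, starting at positions -105 and -83, where -1 is the base before the start site. A CArG box was found in 1.16% of 35097 windows of the same length. The variant TGACATCA started at -123 in the ATF3 window shown, but was not in the other ATF3 window. In JUN it started at -67, and 2.37% of all windows held it. The variant was added after the members' windows were seen, so that share is not a fair comparison for them. JUND had a CRE at -200, against 1.65% of all windows. The AP-1 site, the EGR1 site and the p53 half-site were in none of the members' windows and in 4.2%, 0.721% and 5.58% of all windows. None of the motifs searched was in the windows of JUNB, FOS, FOSB, FOSL2 and IER2, which are not shown. Bases further from the start site were not searched. A match is a description of the letters and not evidence of binding.

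The targeted transcript was lower on both Las1L arrays, at 211.5 units with siRNA #1 and 158.1 with siRNA #2, against 770.0 and 717.5 on the control arrays. As a check of the cell type, 7 of 12 epithelial and colorectal markers had a probe above the background limit on all 4 arrays, namely EPCAM, KRT8, KRT18, KRT19, CDX2, CDH1 and ELF3. Of these, 2 were higher past the limma trend fit described below. ELF3, an epithelial transcription factor, gave 501.5 and 551.9 units on Las1L arrays, against 224.5 and 220.3 on control arrays, a log2 fold change of 1.24 (SE 0.13). CDH1, the epithelial cadherin, had a log2 fold change of 0.43 (SE 0.13). Any part of these markers in the results that follow was not tested. CDX1, CEACAM5, KRT20, LGALS4 and VIL1 were not above it on any array. Of 14 fibroblast, endothelial and leukocyte markers only CD68 had a probe above the limit on all 4 arrays, and their summed signal was 538.4 and 590.0 on Las1L arrays, against 545.7 and 619.9 on control arrays. Each array had 36.5% of its probes above the limit, which is no check, because the deposited values are alike in distribution on all arrays.

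EGR1, FOSL1 and IER2 were lower and ATF3 was higher on both Las1L arrays, while JUN stayed close to its control level. EGR1 was 2.43-fold lower, FOSL1 1.61-fold lower and IER2 1.61-fold lower, and ATF3 was 1.85-fold higher. In limma without an intensity trend, the primary test, 0 of the 8 tested members and 0% of all 17689 probes passed an adjusted p of 0.05. There, 4 members (EGR1, ATF3, FOSL1 and JUNB) and 4266 of all probes had an unadjusted p under 0.05. IER2 did not (limma without the trend, unadjusted p = 0.0618). In the same limma fit with an intensity trend, which lets the prior variance follow mean signal, 1 member was called higher and 3 lower, against 8.12% of all probes called higher and 7.70% called lower. From here on "rose" and "fell" mean past that second fit, and no gene so described passed the first. With either Las1L array left out no probe at all passed the trend fit, and EGR1 was then at adjusted p = 0.0705 without siRNA #1 and 0.0816 without siRNA #2 in limma. With a floor of 50 or no filter on dim probes none of the 4 passed it. The median log2 fold change of the 8 members was -0.40, and that of all 10466 tested genes was -0.0001. Both Las1L arrays lay below both control arrays for 5 members and above them for 1, where 27.9% of all probes lay below and 28.0% above.

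**Figure D1:**
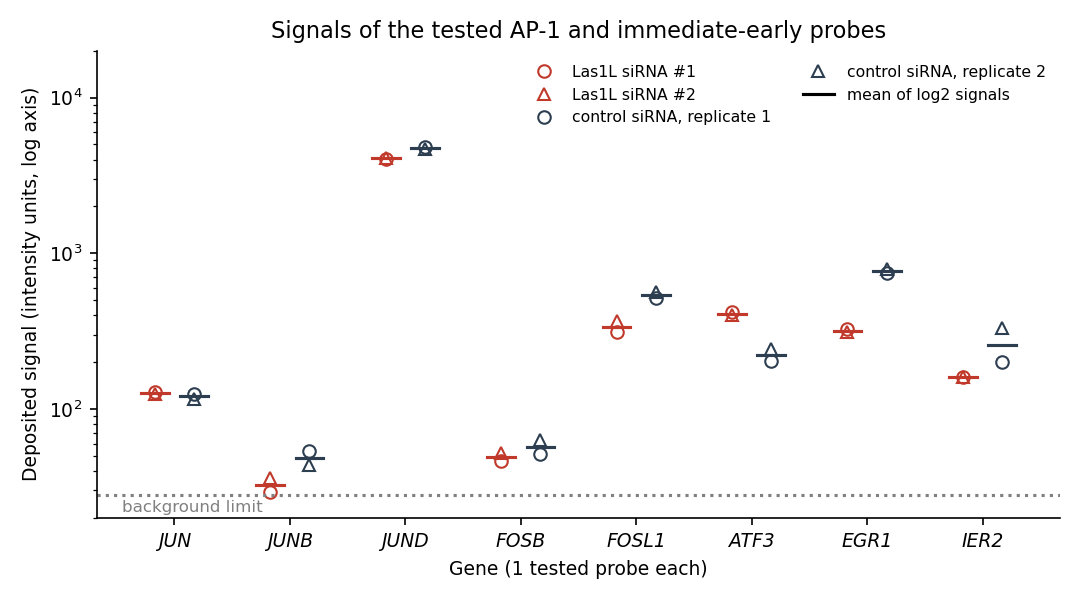
Deposited signal (intensity units, log axis) of the 8 tested member probes on each array, with Las1L siRNA arrays left of control siRNA arrays and a bar at the mean of the log2 signals. EGR1, FOSL1, IER2, JUNB and JUND lie lower on both Las1L arrays, ATF3 lies higher, and the arrays of JUN and FOSB overlap.

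Among the JUN proteins, JUN, the main partner of FOS proteins, gave 128.9 units with siRNA #1 and 124.5 with siRNA #2, against 125.5 and 116.0 with control siRNA. The groups overlapped. The log2 fold change was 0.07, with a 95% interval of -0.32 to 0.46 in the trend fit, so these arrays leave room for a change in either direction. JUNB, a subunit with weaker activating capacity than JUN, gave 29.2 and 35.9 units in Las1L arrays, against 43.4 and 53.5 in control arrays. The groups did not overlap, but all 4 values were near the background limit. Its log2 fold change of -0.57 was short of the threshold (limma trend fit, adjusted p = 0.308), and it was -0.05 with signals floored at 50. JUND, the subunit most tied to resting cells, gave 4062.2 and 4083.9 units in Las1L arrays, against 4791.1 and 4670.9 in control arrays. These groups were also separate, with a small log2 fold change of -0.22 (SE 0.09, 95% interval -0.40 to -0.04) that was short of the threshold (limma trend fit, adjusted p = 0.101).

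The FOS proteins need a JUN partner to form a stable dimer. FOSL1, also called FRA1, is the FOS protein known for responding to sustained ERK signalling in carcinoma cells. Its signal was 310.4 units with siRNA #1 and 365.1 with siRNA #2, against 517.8 and 565.5 with control siRNA. Both Las1L values lay well under the lower control value. FOSL1 fell, at a log2 fold change of -0.68 (SE 0.13, limma adjusted p = 0.00155 in the trend fit and 0.0973 without the trend). FOSB gave 46.4 and 51.9 units in Las1L arrays, against 51.4 and 63.3 in control arrays. The groups overlapped and its log2 fold change of -0.22 had a 95% interval of -0.84 to 0.41.

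FOS itself, the prototype immediate-early gene, was above the background limit on 1 array only and was not tested. Its signal was -8.9 and -13.6 units in Las1L arrays, against 35.5 and 20 in control arrays. The values below 0 follow from background subtraction, and no fold is given because the control mean does not exceed what the background allows in the Las1L arrays. With no filter on dim probes its adjusted p in limma was 0.894. FOSL2, also called FRA2, lay between 1.9 and 8.6 units on all 4 arrays and was not above background in either group.

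ATF3 is a stress-induced bZIP factor that can pair with JUN proteins and often acts as a repressor. One probe (ILMN_2374865) gave 420.5 units with siRNA #1 and 398.7 with siRNA #2, against 202.5 and 241.5 with control siRNA. Both Las1L arrays were above both controls by more than the control arrays differed. ATF3 rose, at a log2 fold change of 0.89 (SE 0.14, limma adjusted p = 0.000395 in the trend fit and 0.071 without the trend). The other ATF3 probes, ILMN_1661109 and ILMN_1791346, were at or under -15.1 units on every array, so they were not above background and the rise rests on a single probe. ILMN_1791346 is annotated to the same transcript as the probe that rose, and why these probes differ was not tested. ATF3 ranked 558 from the top among the 17689 tested probes by log2 fold change.

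EGR1, a target of SRF and its ERK-activated partners, showed the log2 fold change of largest size among the tested members. Its signal was 324.3 units with siRNA #1 and 313.8 with siRNA #2, against 752.1 and 798.4 with control siRNA. The Las1L arrays held 41.8% and 40.5% of the mean control signal, and the groups were far apart relative to the spread within each. EGR1 fell, at a log2 fold change of -1.28 (SE 0.11, limma adjusted p = 2.4e-06 in the trend fit and 0.0555 without the trend). It ranked 127 from the bottom among the 17689 tested probes by log2 fold change. RNA came from whole cultures, so fewer cells expressing a gene and less of its RNA per cell cannot be told apart.

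IER2 gave 159.6 and 160.1 units in Las1L arrays, against 200.5 and 330.7 in control arrays. The Las1L values were nearly equal and under both controls, while the control arrays differed from each other by 0.72 on the log2 scale, the widest control gap among the tested members. For IER2 the SE of the log2 fold change was 0.27 without the trend and 0.20 with it. The trend SE rests mostly on variance borrowed from other probes of like signal. With that limit IER2 fell, with a log2 fold change of -0.69 (SE 0.20, limma adjusted p = 0.0257 in the trend fit and 0.23 without the trend). The size depended on the control array: it was -0.33 without control replicate 2, where it was short of the threshold (limma trend fit, adjusted p = 0.319), and -1.05 without control replicate 1.

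**Figure D2:**
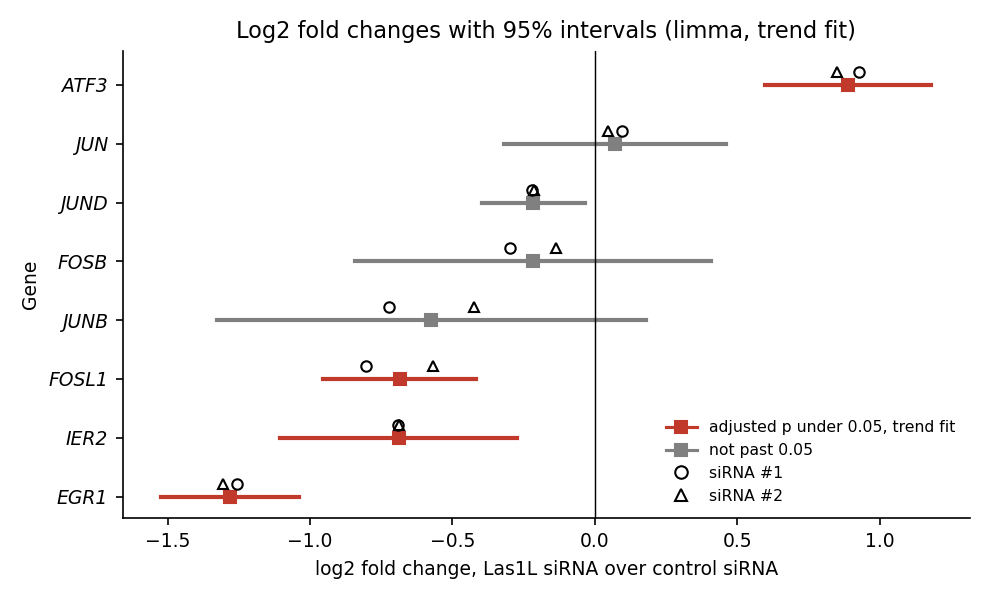
Log2 fold change of each tested member, Las1L siRNA over control siRNA (squares), with 95% intervals from the limma trend fit and the values of siRNA #1 (circles) and siRNA #2 (triangles) against the same control pair. ATF3 at 0.89 lies above 0, and EGR1 at -1.28, IER2 at -0.69 and FOSL1 at -0.68 lie below it with intervals that do not reach 0, as does the smaller change of JUND at -0.22, which did not pass after adjustment.

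The siRNAs were then set side by side. Against the shared control pair, the log2 fold change of EGR1 was -1.26 for siRNA #1 and -1.30 for siRNA #2. For ATF3 these values were 0.93 and 0.85, for FOSL1 -0.80 and -0.57, and for IER2 -0.69 and -0.69. Because both use the same control arrays, their likeness is in part built in. The direct contrast of siRNA #2 over siRNA #1 uses no control level, and its largest size among the 8 tested members was 0.30 for JUNB (SE 0.25). FOSL1 followed with 0.23 (SE 0.19). With a single array of each siRNA, these SEs come from the gap between the control arrays and from borrowed variance. They assume that a lone siRNA array varies as the control arrays do. In limma 0% of all probes passed that contrast, 838 had an unadjusted p under 0.05, and none of the 8 members was among these. A single array of each siRNA cannot establish that their effects on these genes are equal.

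**Figure D3:**
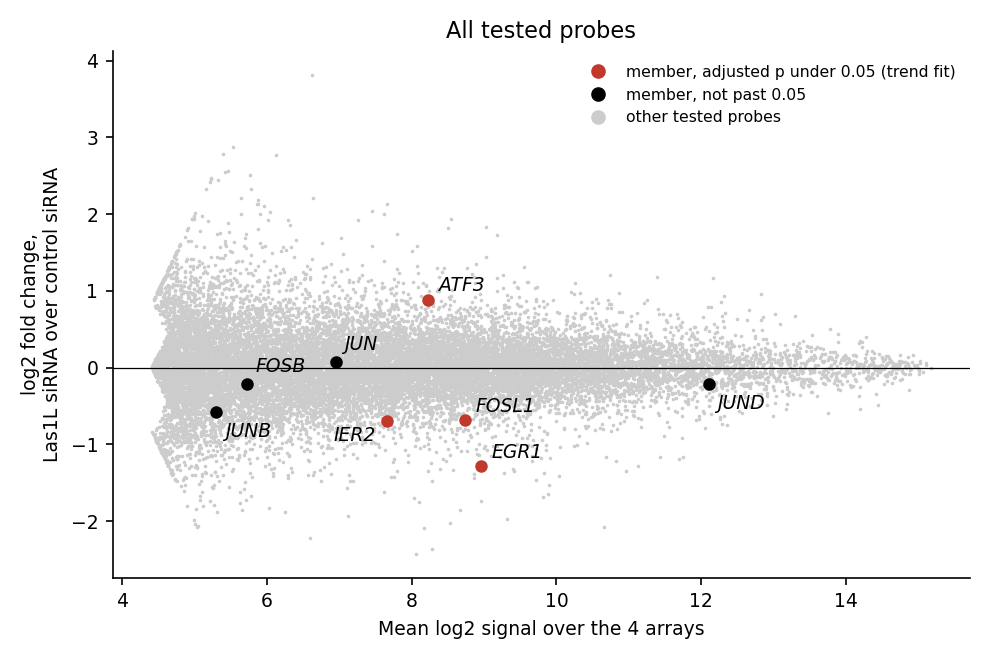
Mean log2 signal over the 4 arrays against the log2 fold change, Las1L siRNA over control siRNA, for all 17689 tested probes (grey) and the 8 tested members (coloured). EGR1 at -1.28 lies at the lower edge of the cloud for its signal, and JUN at 0.07 and JUND at -0.22 lie near 0.

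Other immediate-early genes moved both ways. Of 39 listed, 32 were tested, 6 rose and 10 fell in the trend fit, where 9.64% of all 10466 genes rose and 9.17% fell. Their median log2 fold change was -0.10. IER5L, of the IER family, fell by 1.02 (SE 0.15), and ZFP36L1, which promotes decay of AU-rich mRNAs, fell by 0.73 (SE 0.17). KLF4, a differentiation-linked zinc-finger factor, fell by 0.65 on one probe, while its second probe, at -0.47, did not pass. RHOB, a small GTPase, fell by 0.64, and SGK1, a kinase of the AGC family, fell by 0.62. CCN1, a secreted matricellular protein, rose by 0.92 (SE 0.20), with 177.8 and 138.6 units in Las1L arrays, against 79.4 and 87.0 in control arrays. ZFP36L2 at 0.52, CSRNP1 at 0.49, BHLHE40 at 0.43 and IER5 at 0.38 also rose. NR4A2 rose by 0.45 on its brighter probe, while its second probe, at 0.42, did not pass. ZFP36 at -0.50 and IER3 at -0.49 fell. These further genes, and SRF, NAB1 and DUSP6, were named after their values were seen, so they show nothing about a pathway as a whole. SRF, which binds the CArG box, fell by 0.43 (SE 0.10), and NAB1, a corepressor of EGR1, fell by 0.58 (SE 0.14). NAB2, the other EGR1 corepressor, stood at -0.16, short of the threshold. DUSP6, the phosphatase that restrains ERK and is itself induced by it, fell by 0.51 on the brighter probe and fell by 1.04 on the second. DUSP5 at -0.12, MYC at -0.16 and DUSP1 at 0.20 did not pass.

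**Figure D4:**
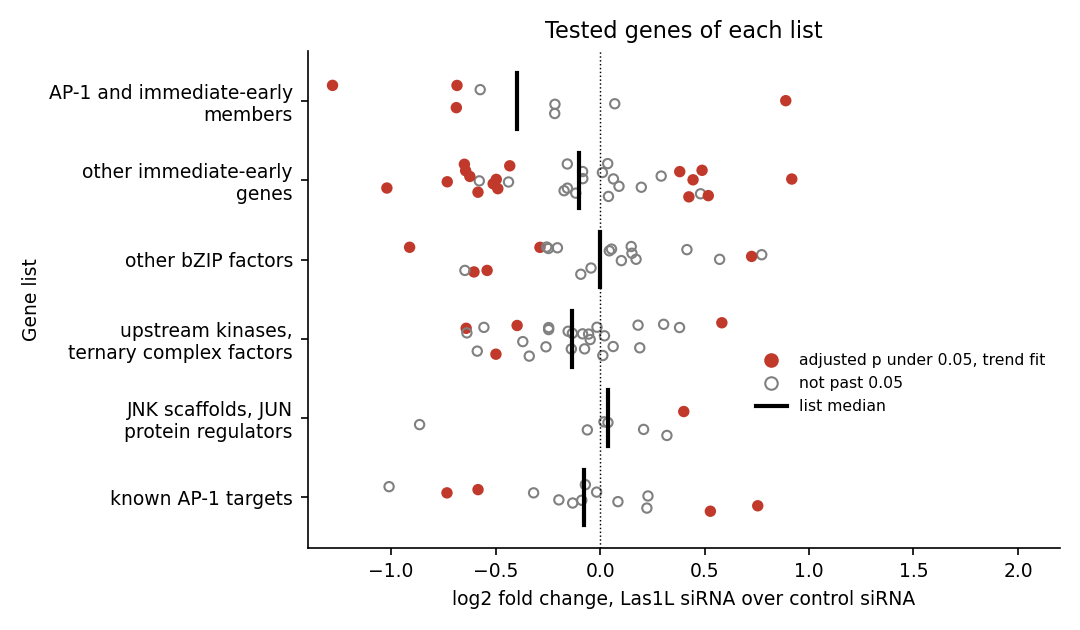
Log2 fold change, Las1L siRNA over control siRNA, of each tested gene in the AP-1 and immediate-early members and 5 related lists, with filled points past an adjusted p of 0.05 in the limma trend fit and a bar at each list's median. The members' median is -0.40, and the medians of the other lists lie between -0.13 and 0.04.

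Other bZIP factors, which can share partners with AP-1, included 20 tested of 33 listed, of which 1 rose and 4 fell, where 9.64% of all genes rose and 9.17% fell. ATF5 rose by 0.73 (SE 0.10). NFE2L2, the NRF2 factor of the oxidative stress response, fell by 0.91 (SE 0.11), with 537.5 and 535.0 units in Las1L arrays, against 1069.4 and 951.4 in control arrays. CEBPD fell by 0.60 (SE 0.13), MAFG, a small MAF partner of NFE2L2, by 0.54 and ATF4, an effector of the integrated stress response, by 0.29. The other ATF4 probes, at -0.56 and -0.25, did not pass. ATF2, a JUN partner, stood at 0.77, short of the threshold (limma trend fit, adjusted p = 0.14). The list's median was 0.00.

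Of 32 kinases and ternary complex factors upstream of AP-1 and EGR1, 27 were tested, 1 rose and 3 fell, with a median of -0.13. Among all genes 9.64% rose and 9.17% fell, so these counts are not far from the background. MAP2K4, which activates JNK, fell by 0.64 (SE 0.13) on one probe and by 0.64 on a second. RPS6KA4, the MSK2 kinase, fell by 0.50, and MAPKAPK3, a substrate kinase of p38, fell by 0.40. MAP3K1, upstream of MAP2K4, rose by 0.58 (SE 0.16). MAPK8, which encodes JNK1, stood at -0.64 and ELK1, an SRF partner, at -0.26, both short of the threshold. MAPK3, which encodes ERK1, stood at 0.01, MAP2K1, which activates it, at 0.06 and ELK4, another SRF partner, at -0.08. Among 7 tested of 10 JNK scaffolds and regulators of JUN protein, FBXW7, a ubiquitin ligase subunit that targets JUN, rose by 0.40 and the other 6 did not pass. The other FBXW7 probes gave 1.20, which passed, and 0.20, which did not.

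Genes known as AP-1 targets were called in both directions. Of 27 listed, 14 were tested, 2 rose and 2 fell, with a median of -0.08, where 9.64% of all genes rose and 9.17% fell. CCND1, the G1 cyclin D1, rose by 0.75 (SE 0.09), with 7942.2 and 8903.5 units in Las1L arrays, against 4972.4 and 4995.8 in control arrays. CDKN2A rose by 0.53 on one probe and had a log2 fold change of 0.03 on another, which did not pass. PLAUR, the urokinase receptor, fell by 0.73 (SE 0.13), with 248.3 and 248.2 units in Las1L arrays, against 404.7 and 420.5 in control arrays. Its other tested probes had log2 fold changes of -0.35 and -0.42 and did not pass. F3, tissue factor, fell by 0.58 on one probe and by 0.60 on the second. CXCL8 at -0.32, HMOX1 at -0.20, VIM at 0.22 and CD44 at -0.09 did not pass.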

How the data were processed

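The deposited values are probe intensity on a linear scale, made by the authors with GenomeStudio, per the submitters' processing notes. Neither its version nor the settings used for background and normalization is given in the sources used here. On each array 26.9% of the values are negative, and they have a median of 14.9 on each of the 4 arrays, as after background subtraction and quantile normalization. A second table was not used, because the names of its 8 value columns cannot be tied to any sample. The number of arrays limits the precision.

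The background limit, 28.1 units, is the one-sided 0.05 point of noise estimated from values below 0 (root mean square 17.1). Values under 16 were set to 16, log2 was taken, and probes above the limit on at least 2 arrays were tested, so folds of dim genes are bounded by the floor. Symbols came from a platform annotation of 2016, updated by gene identifier to RefSeq; 30113 probes had 1 symbol, 8 had several and 17202 had none. Lists use each gene's brightest tested probe, and members use every probe. Tests were limma 3.58.1 (R 4.3.3) lmFit and eBayes without and with an intensity trend, two-sided, with Benjamini-Hochberg adjustment over all 17689 tested probes, also for lists. The main fit left each probe 2 residual degrees of freedom. Variance borrowed from other tested probes added 2.2 prior degrees of freedom without the trend and 13.8 with it. The siRNA contrast came from a 3-group fit, which leaves 1 residual degree of freedom. The fits were also run on simulated data, but no outcome of that run is given here, so it says nothing about their error rates. Alternatives were a floor of 50, an offset of 64, no filter, a filter on all 4 arrays, median centring, leaving out each array, and the trend. The text names all members, LAS1L, and up to 6 genes of largest change past the trend fit in each list, with further genes named where stated or as not past it. The members and lists were chosen with earlier results of these data known.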

Additional observations from a re-analysis of the deposited data

How the results depend on the processing

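The number of probes passing limma without the trend, 0 of 17689, became 226 at a floor of 50, 2239 at an offset of 64, 28 with no filter on dim probes, 1267 above the limit on all 4 arrays and 2798 with the intensity trend, and stayed 0 whichever 1 array was left out. With the trend the count of 2798 became 48 with a floor of 50 and 0 with no filter. Leaving out 1 array gave 0 to 1495: 0 with either Las1L array left out, 1155 without control replicate 1 and 1495 without control replicate 2. Between siRNA #2 and siRNA #1, 3274 probes passed in place of 0 with no filter, and no fit without a control array was possible because no residual degree of freedom is left. The LAS1L log2 fold change of -2.02 passed above the limit on all 4 arrays (-2.02), with the trend (-2.02) and with the offset (-1.71), and ranged from -2.23 to -1.81 without 1 array. Leaving out an array leaves fewer samples; the cause of the other shifts was not tested.

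All 8 tested members kept their direction in every alternative run. Median centring gave the main values again, so it was no separate test. EGR1 ranged from -1.32 to -1.13, ATF3 from 0.73 to 1.02 and FOSL1 from -0.80 to -0.57. Without the trend these 3 passed above the limit on all 4 arrays (adjusted p = 0.0139 for EGR1, 0.0263 for ATF3 and 0.0424 for FOSL1 in limma) and with the offset. With a floor of 50 and no trend EGR1 passed narrowly (limma adjusted p = 0.0485), while ATF3 and FOSL1 did not. With the trend none of EGR1, ATF3, FOSL1 and IER2 passed with a floor of 50 (adjusted p = 0.0516 for EGR1), with no filter or with either Las1L array left out. No paired analysis was possible because the description label of both Las1L arrays gives the same replicate number and their titles number the siRNA, not a replicate.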
